A study of Homo sapiens with 18 samples.

Results

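The genes described are those whose symbols follow the KCN pattern of human potassium channels, that is KCN, one or more capital letters and a number at the end, in all 3 deposited count tables. There are 95 of them among 58336 genes. They include pore-forming subunits and the accessory proteins that travel with them. The RNA was sequenced from A673, TC-71 and TC-32, established lines from Ewing sarcoma. A small interfering RNA against FLI1 (siFLI1) was set against a negative control (siNeg), both at 20 nM by reverse transfection, with 3 libraries for each siRNA in each line and 18 in all. The 6 groups are thus siNeg and siFLI1 in each of the 3 lines. The column names give 48 h after transfection for TC-32 and TC-71 and no time for A673. Ewing sarcoma is a tumour of bone and soft tissue, and in these lines it is driven by a fusion of EWSR1 to FLI1. The siRNA against FLI1 also reaches the fusion transcript, so its effects cannot be told apart into those of the fusion and those of any unfused FLI1. A single siRNA against FLI1 was used in each line. The labels do not say whether the libraries of a group came from separate cultures, so p-values measure only the spread between these libraries.

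Potassium channels let potassium leave or enter the cell along its gradient, which sets the resting membrane potential and ends electrical signals. Voltage-gated (Kv) channels open on depolarisation, calcium-activated channels open when internal calcium rises, inward rectifiers and two-pore domain channels carry current at rest, and accessory subunits of the KCNE, KCNAB and KCNIP families alter the gating or traffic of Kv pores. In tumour cells these channels are known for links to cell volume, membrane potential and passage through the cell cycle. The EWSR1::FLI1 fusion is known for binding GGAA repeats, at which it can open chromatin.

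The TC-32 libraries held 24102487 to 33669271 counts each, those of TC-71 19685354 to 37234528 and those of A673 114564479 to 120993595, so low members were measured with most precision in A673. FLI1 itself was lower in every siFLI1 library than in any siNeg library of its line. Its log2 fold change under siFLI1 (edgeR quasi-likelihood test) was -2.09 in A673, -1.47 in TC-71 and -1.03 in TC-32. The effect on FLI1 differed by 1.08 for TC-32 minus A673 and by -0.65 for A673 minus TC-71. For TC-32 minus TC-71 it differed by 0.43 (interaction adjusted p = 4.11e-14, 1.52e-08 and 6.67e-05 in this order). Of 9 markers of Ewing sarcoma, 8 fell and 1, XG, rose in TC-32, 8 of 8 tested fell in TC-71 and 9 of 9 fell in A673, while CD99 was listed at 0 counts in all 6 TC-71 libraries. The TC-71 table was made with another counting tool, so absence of CD99 RNA cannot be told apart from an effect of counting. Summed over these 9 markers, the siNeg libraries held 1886 to 1972 CPM in TC-32, 2336 to 2384 in TC-71 and 2539 to 2611 in A673, where CPM are TMM-scaled counts relative to library size. Markers of blood cells summed to at most 0.803 CPM in any group. Epithelial markers summed to between 4.83 and 6.33 CPM in the siFLI1 libraries of TC-32, against 1.96 to 2.06 in siNeg, through CDH1, and to at most 1.15 CPM in any library of the other lines. KRT5 went the other way in TC-32, from 1.67, 1.70 and 1.81 CPM in siNeg to 0.958, 0.683 and 1.02 in siFLI1. Endothelial markers summed to at most 2.89 CPM, and in TC-32 PECAM1 fell and CDH5 rose (log2 fold changes of -2.28 and 2.28). Neuronal markers, nearly all SYT1, summed to between 43.1 and 49.9 CPM in siNeg and 26.6 and 28.7 in siFLI1 of TC-32, to between 103 and 112 against 161 and 167 in TC-71, and to between 108 and 112 against 87.9 and 98.0 in A673. Skeletal muscle markers summed to between 3.68 and 5.24 CPM in the siFLI1 libraries of TC-71, against 0.203 to 0.371 in siNeg, through ACTA1, with MYOD1 and MYOG at 0 in all 6. The part of these markers in the results on the channel genes was not tested. In such bulk libraries, fewer cells of a type and less RNA per cell cannot be told apart.

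Of the 95 channel genes, 27 had enough counts to be tested in all 3 lines, 14 in 2 lines, 20 in 1 line and 34 in none. The highest level of a gene tested in no line was 0.854 CPM in 1 library, and 4 genes (KCNA5, KCNG4, KCNJ18 and KCNK16) had 0 counts in all 18 libraries. A library held a count for 50 to 70 of the 95 genes and at least 1 CPM of 20 to 30 of them. Genes called "higher" or "lower" below had an adjusted p under 0.05 in edgeR's quasi-likelihood test of siFLI1 against siNeg, with Benjamini-Hochberg adjustment over all genes tested in that line. Log2 fold changes are siFLI1 against siNeg, errors are SD with n = 3 per group, and SE is that of the log2 fold change. A gene that entered the test only through the group in which it was high had to differ, so counts over tested genes are descriptions of those genes and not of all 95. The same holds for single genes below that rose from, or fell to, a level near 0 counts. Their calls and adjusted p-values are descriptions.

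In TC-32, 20 of the 38 channel genes tested were higher and 16 were lower, against 41.3% of all genes tested higher and 40.1% lower. In TC-71, 11 of 43 were higher and 16 lower, against 36.8% and 35% of all genes. In A673, 20 of 48 were higher and 16 lower, against 35.6% and 35.4%. These shares lie near those of all genes in A673 and for the lower calls of TC-32 and TC-71, above them for the higher calls of TC-32 and below them for the higher calls of TC-71. Changes of at least 2-fold were seen for 17 higher and 11 lower genes in TC-32, where 22% and 15.6% of all genes reached that size. In TC-71 there were 5 and 9, against 14.1% and 9.38%. In A673 there were 16 and 12, against 13.3% and 9.87%. These make 44.7% and 28.9% of the channel genes tested in TC-32, 11.6% and 20.9% in TC-71 and 33.3% and 25% in A673, above the share of all genes except for the higher calls of TC-71. The median absolute log2 fold change of the channel genes tested was 2.19, 0.57 and 1.24 (TC-32, TC-71 and A673), against 0.73, 0.47 and 0.42 over all genes tested. The channel genes were also lower in level, with a median log2 CPM of 1.48, 1.95 and 0.13 against 4.17, 4.22 and 3.62, and the part of level in the size of the changes was not tested. The signed values had medians of 0.79, -0.16 and -0.0030 in the same order, against 0.02, 0.02 and -0.0066 over all genes, and setting the genes with 0 counts in 1 group at their bound left these medians as they were. The counts and medians by class given below rest on few genes each. They are to be read against these shares and medians of all genes, most of which were called.

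**Figure D1:**
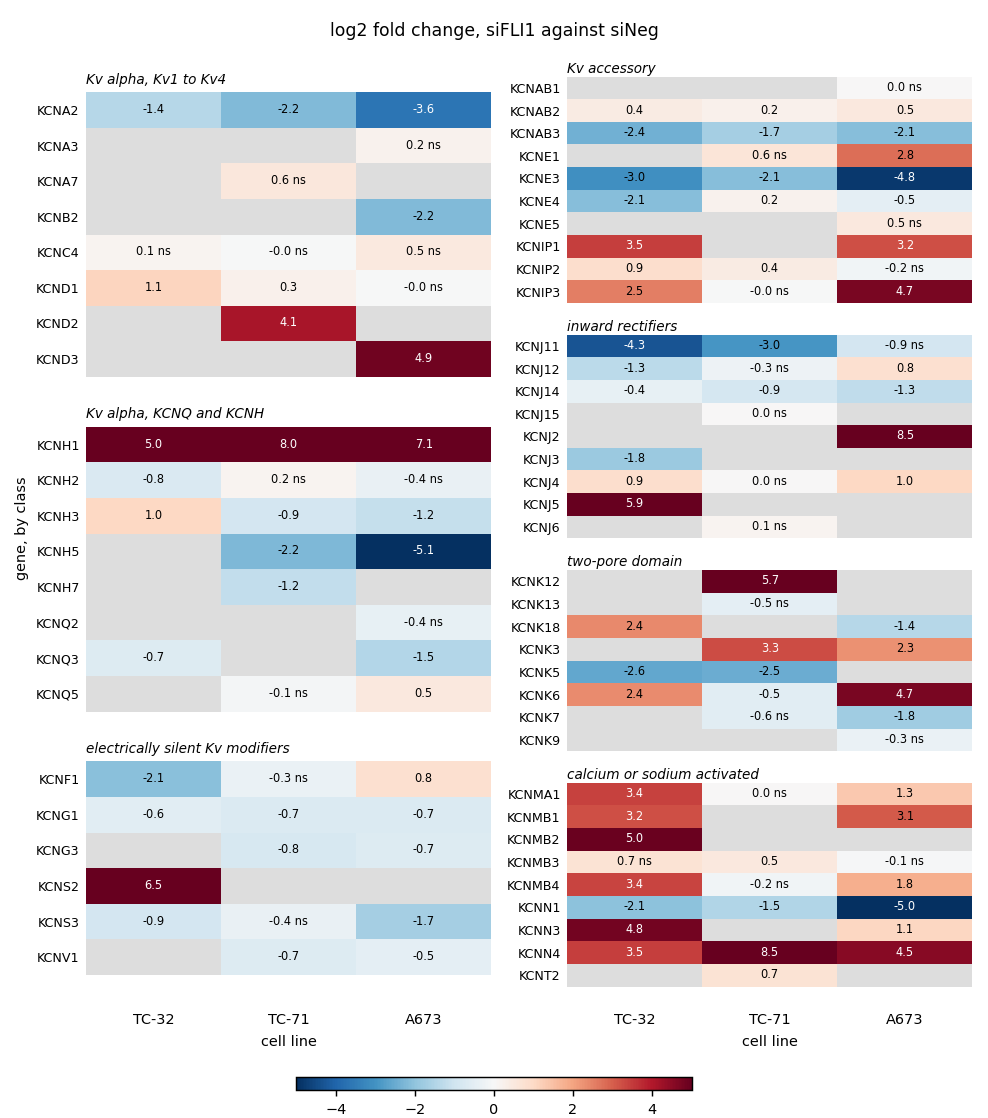
Log2 fold change of siFLI1 against siNeg for 58 of the 61 channel genes tested in at least 1 line, with lines in columns and genes in rows by class. Colour and number give the log2 fold change, "ns" marks values not past the threshold, grey marks genes not tested in that line, and the values of KCNH1 and KCNN4 in TC-71, KCNJ2 in A673 and KCNS2 in TC-32 are fits against a siNeg group with 0 counts, so their size depends on the fit. KCNE3, KCNAB3, KCNA2 and KCNN1 are blue and KCNH1 and KCNN4 are red in all 3 columns.

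Read per length, the channel transcripts of the control cells were mostly those of a few accessory subunits, and the summed level of the 95 genes was lower with siFLI1 in all 3 lines. CPM per kilobase of exon (the exon union of GENCODE 44, so a gene with long and rarely used exons reads low) were added over the 95 genes in each library. In TC-32 the 3 siNeg libraries held 108.8, 111.2 and 109.8 and the 3 siFLI1 libraries 49.3, 51.4 and 50.3. In TC-71 they held 86.2, 86.9 and 89.03 against 66.3, 64.7 and 63.8. In A673 they held 151.8, 152.8 and 151.5 against 41.6, 42.1 and 42.6. The groups did not overlap in any line, and the ratio of siFLI1 to siNeg was 0.458, 0.743 and 0.277. KCNE4 made up 56.7% of the sum in TC-32 siNeg, 28.2% in TC-71 siNeg and 19.5% in A673 siNeg. KCNE3 made up 61.2% in A673 siNeg and 7.89% in A673 siFLI1. KCNAB3 made up 17.9% in TC-71 siNeg. Without KCNE3 and KCNE4 the ratios were 0.885, 0.617 and 0.608. A sum over TC-32 or A673 and one over TC-71 come from tables counted and scaled separately, and their levels are set side by side only.

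**Figure D2:**
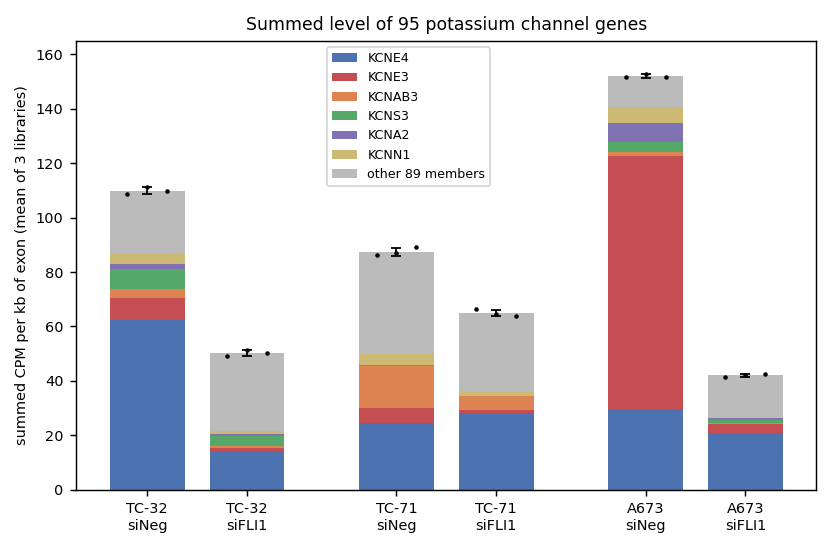
Summed level of the 95 channel genes in CPM per kilobase of exon (vertical axis, from 0) for siNeg and siFLI1 in each line. Bars are means of 3 libraries split by gene, points are the libraries and error bars are the SD of the sum; the KCNE3 segment of A673 shrinks from 61.2% to 7.89% of its bar.

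KCNE3 fell in all 3 lines and was the most abundant channel gene per length in the control cells of A673. KCNE3 (ENSG00000175538, chr11:74454841-74467729, minus strand, GENCODE 44 on GRCh38) encodes a single-pass subunit that holds KCNQ1 channels open in epithelia. In A673 its 3 siNeg libraries stood at 334, 338 and 333 CPM and its siFLI1 libraries at 11.8, 11.9 and 12.2. In TC-32 the values were 28.4, 29.2 and 29.5 against 3.45, 3.33 and 3.76, and in TC-71 they were 18.01, 19.3 and 19.5 against 4.62, 3.98 and 4.26. Every siFLI1 library lay below every siNeg library of its line. The log2 fold changes were -4.81 in A673 (SE 0.0416, edgeR adjusted p = 2.06e-20), -3.05 in TC-32 (SE 0.0904, adjusted p = 6.31e-20) and -2.14 in TC-71 (SE 0.0986, adjusted p = 6.43e-18). The fall was largest in A673: the effect in A673 minus that in TC-71 was -2.697 on the log2 scale (interaction adjusted p = 4.24e-22), and the effect in TC-32 minus that in A673 was 1.78 (adjusted p = 1.92e-17). Of its exon bases, 16.9% overlap genes on the opposite strand, and whether the counting used strand is not given in the sources used here.

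Among the channel genes tested in any line, KCNE3 had the GGAA repeat closest to its start. A run of 4 tandem copies lies 940 bases upstream, and the reference sequence around it is shown because GGAA repeats are the known binding sites of the fusion. Capitals mark the tandem run, which reads TTCC on the plus strand (hg38, plus strand, 5′ to 3′, chr11:74468644-74468709).
KCNE3: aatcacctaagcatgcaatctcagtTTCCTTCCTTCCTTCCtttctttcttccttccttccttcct
After a short break, further TTCC copies follow the run in lower case and reach the edge of the window. The full length of the repeat was not measured. The libraries measure no binding, so the repeat is given as position only.

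KCNE4, the most abundant channel gene of TC-32 and TC-71, moved in different directions in the lines. It (ENSG00000152049, chr2:223052190-223198399, plus strand) encodes a subunit known for damping Kv currents. In TC-32 its siNeg libraries stood at 230.1, 239 and 231.2 CPM and its siFLI1 libraries at 53.8, 53.2 and 54.3. In A673 they stood at 111, 111 and 112 against 77.5, 76.9 and 80.6. In TC-71 the order was turned, with 93.3, 89.2 and 94.5 in siNeg and 108, 103 and 107 in siFLI1. The groups did not overlap in any line, and the log2 fold changes were -2.12 (SE 0.0457, edgeR adjusted p = 1.15e-22), -0.50 (SE 0.0375, adjusted p = 4.18e-09) and 0.20 (SE 0.0472, adjusted p = 0.000523). The effect in TC-32 minus that in TC-71 was -2.32 (SE 0.0607, interaction adjusted p = 5.46e-26).

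The cytoplasmic beta subunits of Kv1 channels split. KCNAB3 (ENSG00000170049, chr17:7921859-7929856, minus strand) fell in all 3 lines. Its siNeg libraries of TC-71 stood at 71.7, 70.0 and 75.6 CPM and its siFLI1 libraries at 24.3, 22.0 and 20.5. TC-32 gave 14.1, 16.2 and 16.7 against 3.33, 2.91 and 2.74, and A673 gave 6.78, 7.12 and 6.999 against 1.34, 1.62 and 1.86. The siFLI1 libraries were the low ones throughout, without overlap. The log2 fold changes were -1.71 in TC-71 (SE 0.0636, edgeR adjusted p = 3.66e-20), -2.39 in TC-32 (SE 0.112, adjusted p = 7.38e-16) and -2.12 in A673 (SE 0.101, adjusted p = 1.38e-11). KCNAB2, its relative on chromosome 1, was higher in all 3 lines by a small amount. Its log2 fold changes were 0.41 in TC-32 (SE 0.110, edgeR adjusted p = 0.00160), 0.52 in A673 (SE 0.0874, adjusted p = 5.91e-05) and 0.24 in TC-71 (SE 0.0981, adjusted p = 0.0327). In TC-71 the values were 8.95, 8.82 and 9.47 CPM in siNeg and 11.8, 10.6 and 9.89 in siFLI1, close but without overlap. That last call did not hold when the siNeg library 1 or 2 or the siFLI1 library 1 or 2 of TC-71 was left out (adjusted p = 0.0984, 0.0951, 0.156 and 0.0561), nor with DESeq2 (adjusted p = 0.0798) or with no filter on low counts (0.0592), and its adjusted p ran from 0.0130 to 0.156 over all alternatives. KCNAB1 and KCNE5 were tested in A673 only and did not pass the threshold, and KCNE1 rose there from 0.0139 ± 0.0128 to 0.104 ± 0.00773 CPM (edgeR adjusted p = 0.000800). KCNE1 entered that test only through siFLI1, in which it was high, so its call is a description.

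The KCNIP genes encode calcium-binding partners of Kv4 pores, and 2 of them rose strongly in TC-32 and A673. KCNIP1 went from 0.316 ± 0.188 to 3.58 ± 0.304 CPM in TC-32 (log2 fold change 3.46, edgeR adjusted p = 4.98e-11) and from 0.374 ± 0.0235 to 3.55 ± 0.231 in A673 (3.24, adjusted p = 7.57e-13), while in TC-71 it was not tested, with 1 count in siNeg library 1 and 1 in siFLI1 library 1. KCNIP3, also known as a calcium-dependent transcriptional repressor, went from 1.00 ± 0.453 to 5.82 ± 0.734 CPM in TC-32 (2.54, adjusted p = 1.70e-10) and from 0.0692 ± 0.0117 to 1.89 ± 0.141 in A673 (4.75, adjusted p = 2.48e-12). In TC-71 KCNIP3 stood higher in siNeg than in the other lines, at 9.55 ± 0.613 CPM, and at 9.45 ± 0.895 in siFLI1 (-0.02, adjusted p = 0.841). Its effect in TC-71 was below that in TC-32 by 2.56 and below that in A673 by 4.72 (interaction adjusted p = 1.10e-11 and 9.62e-17). KCNIP2 rose in TC-32 from 1.63 ± 0.247 to 3.00 ± 0.390 CPM (0.88, adjusted p = 0.000308) and in TC-71 from 4.24 ± 0.338 to 5.62 ± 0.325 (0.39, adjusted p = 0.00711), and did not pass the threshold in A673 (adjusted p = 0.343). Over the 12 accessory genes, 4 rose and 3 fell of 7 tested in TC-32, 3 rose and 2 fell of 7 in TC-71, and 4 rose and 3 fell of 10 in A673, with median log2 fold changes of 0.41, 0.20 and 0.27.

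**Figure D3:**
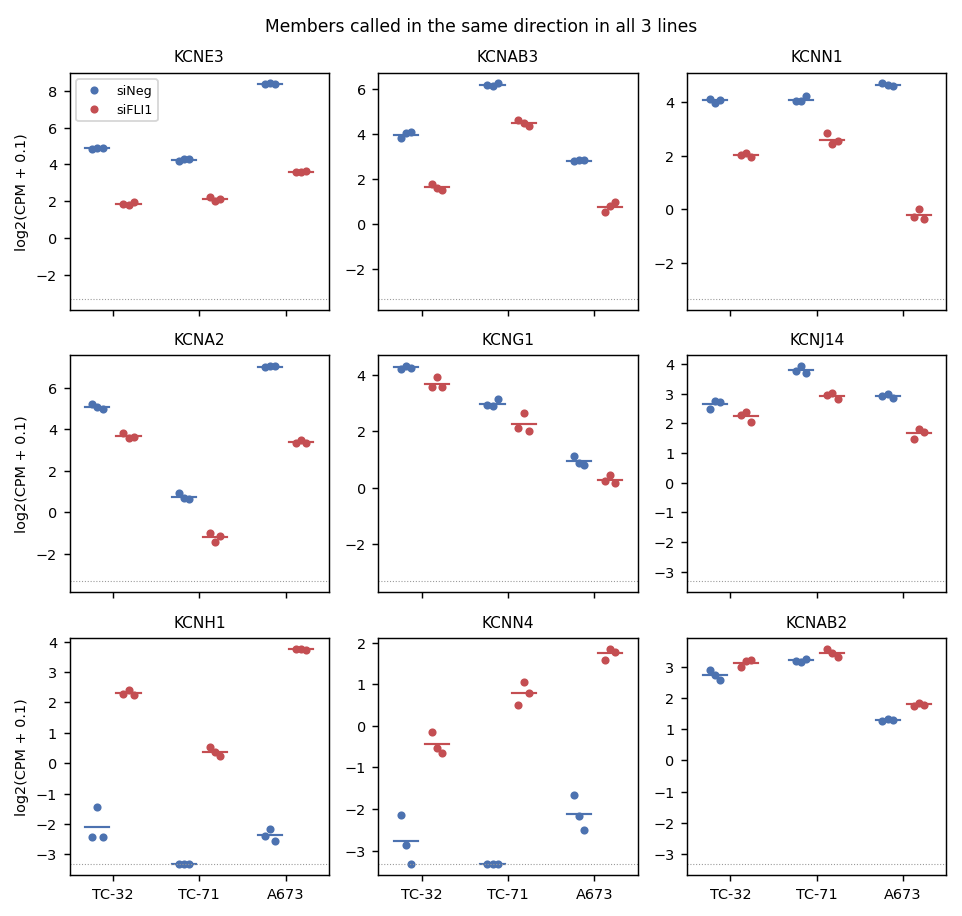
Level of the 9 channel genes called in the same direction in all 3 lines, as log2 of CPM plus 0.1 (vertical axis, scaled per panel), by line and siRNA; points are libraries, lines are means of the log2 values and the dotted line marks 0 CPM. In each panel the siNeg and siFLI1 points of a line do not overlap, and KCNAB2 shows the smallest gap.

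Among the pore-forming subunits of the Kv1 to Kv4 families, KCNA2 fell in every line. KCNA2 (ENSG00000177301, chr1:110519837-110631474, minus strand) encodes a delayed rectifier of axons. In A673 it went from 128, 133 and 131 CPM in siNeg to 10.2, 11.1 and 10.1 in siFLI1. TC-32 held 36.9, 33.4 and 31.9 against 14.1, 11.8 and 12.2, and TC-71 held 1.82, 1.52 and 1.49 against 0.409, 0.268 and 0.350. The groups stayed apart in each line, at control levels that differed greatly between lines. The log2 fold changes were -3.64 (SE 0.0488, edgeR adjusted p = 1.88e-18), -1.43 (SE 0.0799, adjusted p = 2.48e-14) and -2.22 (SE 0.307, adjusted p = 1.83e-07). The fall in TC-32 was smaller than in A673 by 2.24 (interaction adjusted p = 9.36e-21) and than in TC-71 by 0.79 (adjusted p = 0.0177).

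The Kv4 pores give fast A-type currents. KCND2, which could be tested in TC-71 alone, rose there from 0.0743, 0.0507 and 0.0347 CPM to 1.19, 0.994 and 0.835 (log2 fold change 4.11, SE 0.530, edgeR adjusted p = 3.52e-08). It was not tested in TC-32, where its only counts were 5 in siNeg library 2, or in A673, where no library held more than 2 counts. The effects in TC-71 and A673 differed by -5.26 (A673 minus TC-71, SE 1.99, interaction adjusted p = 0.0149). KCND2 entered that model only through the siFLI1 libraries of TC-71, in which it was high. The value is thus a description and no support for a difference between lines. The call of KCND2 in TC-71, entered through the same libraries, is a description too. KCND3, tested in A673 alone, rose there from 0.0139 ± 0.00494 to 0.437 ± 0.0482 CPM (4.88, adjusted p = 1.87e-08), and its effect was not shown to differ from that in TC-32 (interaction adjusted p = 0.429) or TC-71 (0.273). Since KCND3 was too low to be tested in TC-32 and TC-71, those comparisons could not show whether the effects differ. Its call in A673 is a description, since it entered that test only through siFLI1, in which it was high. KCND1 rose in TC-32 from 4.03 ± 0.409 to 8.79 ± 0.942 CPM (1.13, adjusted p = 8.70e-09). KCND1 was 3.47 ± 0.263 and 3.43 ± 0.444 CPM in A673 (-0.02, adjusted p = 0.882). In TC-71 KCND1 was called higher by 0.26 (adjusted p = 0.0113), a call that did not hold without siNeg library 1 (adjusted p = 0.121).

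The Kv2 pore KCNB2, tested in A673 only, fell there from 0.122 ± 0.0382 to 0.0260 ± 0.0150 CPM (log2 fold change -2.19, edgeR adjusted p = 0.00164). Over the 17 genes of Kv1 to Kv4, 3 rose and 1 fell of 5 tested in TC-32, 2 rose and 2 fell of 6 in TC-71, and 2 rose and 2 fell of 8 in A673, with medians of 1.13, 0.12 and 0.09.

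KCNH1 rose from near 0 in every line. KCNH1 (ENSG00000143473, chr1:210676823-211134165, minus strand) encodes the ether-à-go-go pore EAG1, a channel of the brain that is also known from many tumours. In A673 it went from 0.0915, 0.123 and 0.0675 CPM in siNeg to 13.6, 13.3 and 13.1 in siFLI1. In TC-32 it went from 0.0837, 0.264 and 0.0842 to 4.71, 5.20 and 4.67, and in TC-71 from 0 counts in every siNeg library to 1.35, 1.19 and 1.08 CPM. All 9 siFLI1 libraries lay above all 9 siNeg libraries. The log2 fold change was 7.13 in A673 (SE 0.124, edgeR adjusted p = 3.65e-17) and 5.00 in TC-32 (SE 0.295, adjusted p = 6.46e-14). In TC-71 it was at least 9.80-fold higher, with siNeg set at the limit of 3 counts per library that a count of 0 allows (adjusted p = 8.28e-10). The rise was smaller in TC-32 than in A673, with a difference of -2.07 on the log2 scale (interaction adjusted p = 0.00146), and neither differed from TC-71 past the threshold (adjusted p = 0.0520 for TC-32 and 0.361 for A673). With 0 counts in the siNeg libraries of TC-71, the size of the effect there depends on the fit. The comparisons with TC-71 could therefore not show whether the effects differ. In each line KCNH1 entered the test only through its siFLI1 libraries, in which it was high, so its calls are descriptions. Its counts are uncertain in source, since 28.1% of its exon bases overlap genes on the opposite strand and 18.7% genes on the same strand.

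KCNH5, the close relative EAG2, went the other way where it was present. In A673 it fell from 13.0, 13.4 and 13.1 CPM to 0.377, 0.335 and 0.455 (log2 fold change -5.08, SE 0.0987, edgeR adjusted p = 1.36e-16). A smaller fall was seen in TC-71, from 7.17, 8.67 and 8.81 to 1.47, 1.99 and 1.75 (-2.23, SE 0.147, adjusted p = 3.59e-14). The groups were far apart in both lines, while TC-32 held at most 2 counts in any library and was not tested. The effect in A673 minus that in TC-71 was -2.88 (interaction adjusted p = 2.60e-13), and no difference from TC-32 passed the threshold (adjusted p = 0.729 for A673 and 0.337 for TC-71). With so few counts in TC-32, the comparisons with it could not show whether the effects differ.

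KCNH3, a further KCNH pore, moved in opposite directions in the lines. It rose in TC-32 by 1.02 (edgeR adjusted p = 5.09e-06) and fell in TC-71 by 0.93 (adjusted p = 6.28e-12) and in A673 by 1.19 (adjusted p = 2.38e-07). KCNH2, the cardiac hERG pore, fell in TC-32 from 36.0 ± 3.42 to 21.0 ± 2.63 CPM (adjusted p = 4.57e-08) and did not pass the threshold in TC-71 (adjusted p = 0.366) or A673 (adjusted p = 0.0635). KCNH7 fell in TC-71 from 8.80 ± 0.718 to 3.71 ± 0.0648 CPM (adjusted p = 1.35e-10). KCNQ3, a subunit of the neuronal M-type current, fell in A673 from 9.18 ± 0.709 to 3.34 ± 0.286 CPM (-1.46, adjusted p = 1.38e-10) and in TC-32 from 3.21 ± 0.499 to 2.02 ± 0.583 (-0.69, adjusted p = 0.00389), where 1 siFLI1 library lay among the siNeg libraries. KCNQ5 rose in A673 from 21.6 ± 0.401 to 31.3 ± 0.779 CPM (0.54, adjusted p = 1.74e-08) and stood at 31.2 ± 1.09 and 29.0 ± 1.10 in TC-71 (-0.10, adjusted p = 0.156). Of the 13 KCNQ and KCNH genes, 2 rose and 3 fell of 5 tested in TC-32, 1 rose and 4 fell of 7 in TC-71, and 3 rose and 3 fell of 8 in A673, with medians of -0.69, -0.93 and -0.37.

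The electrically silent Kv subunits form no channel alone and change the gating of Kv2 pores. Of those tested, 3 of 4 were lower in TC-32, 3 of 5 in TC-71 and 4 of 5 in A673, against 40.1%, 35% and 35.4% of all genes tested. KCNG1 (chr20:51003656-51023107) fell by a similar size in each line. Its libraries held 18.7, 19.9 and 19.1 CPM in siNeg and 11.8, 15.1 and 11.9 in siFLI1 of TC-32, and 7.54, 7.30 and 8.74 against 4.21, 6.23 and 3.99 in TC-71. A673 held 2.10, 1.76 and 1.67 against 1.10, 1.28 and 1.01. In each line the siFLI1 libraries lay below the siNeg libraries, with log2 fold changes of -0.57 (SE 0.0901, edgeR adjusted p = 3.78e-06), -0.73 (SE 0.140, adjusted p = 4.43e-05) and -0.70 (SE 0.132, adjusted p = 0.000173). Of its exon bases, 8.01% overlap genes on the opposite strand.

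KCNS3 fell from 23.4 ± 0.782 to 12.2 ± 0.596 CPM in TC-32 (adjusted p = 4.25e-11) and from 11.8 ± 0.179 to 3.63 ± 0.181 in A673 (adjusted p = 1.01e-12), and in TC-71 it stood at only 0.439 ± 0.0207 and 0.314 ± 0.231 CPM (adjusted p = 0.478). KCNG3 and KCNV1, both tested in TC-71 and A673, fell in both, by 0.83 and 0.67 in TC-71 and by 0.69 and 0.48 in A673 on the log2 scale. KCNF1 fell in TC-32, from 1.88, 2.04 and 1.77 CPM to 0.268, 0.416 and 0.643 (log2 fold change -2.08, SE 0.300, edgeR adjusted p = 8.13e-07). In A673 it was called higher, from 0.133, 0.180 and 0.186 CPM to 0.257, 0.189 and 0.429, with the lowest siFLI1 library just above the highest siNeg library (0.80, SE 0.335, adjusted p = 0.0416). That A673 call did not hold without siNeg library 1, 2 or 3 or siFLI1 library 3 (adjusted p = 0.140, 0.0687, 0.0662 and 0.303), nor with DESeq2 (0.0807), limma-voom (0.0680) or library size as the only scaling (0.0716), and its adjusted p ran from 0.0123 to 0.303 over all alternatives. The effect in TC-32 minus that in A673 was -2.86 (SE 0.457, interaction adjusted p = 1.39e-06). KCNS2 had 0 counts in the siNeg libraries of TC-32 and reached a level at least 3.44-fold higher under siFLI1, against the same limit of 3 counts per library (adjusted p = 5.51e-06). It entered that test only through siFLI1, so the call is a description. Of the 10 silent subunits, 1 rose and 3 fell of 4 tested in TC-32, 3 fell of 5 in TC-71 with the other 2 at negative values short of the threshold, and 1 rose and 4 fell of 5 in A673, with medians of -0.75, -0.67 and -0.69.

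The inward rectifiers included the channel genes that neighbour FLI1 itself. KCNJ1 and KCNJ5 lie 23047 and 78088 bases beyond FLI1 on chromosome 11. KCNJ5 (ENSG00000120457, chr11:128891356-128921163, plus strand), which encodes the G-protein-gated pore GIRK4, rose in TC-32 from 0.0419, 0.0754 and 0.126 CPM to 4.75, 4.96 and 5.35 (log2 fold change 5.88, SE 0.309, edgeR adjusted p = 5.64e-15). In TC-71 its libraries held 1, 0 and 1 counts against 1, 6 and 1, and in A673 0, 6 and 9 against 5, 1 and 2, so the groups overlapped and it was not tested. The effect in TC-32 differed from that in A673 by 6.74 (SE 0.990, interaction adjusted p = 2.72e-07). Against TC-71 the difference was 4.22 (SE 1.91) and did not pass the threshold (adjusted p = 0.0660). KCNJ5 entered that model only through the siFLI1 libraries of TC-32, in which it was high. Both values are thus descriptions and no support for a difference between lines. The call of KCNJ5 in TC-32, entered through the same libraries, is a description too. KCNJ1, the renal rectifier ROMK, reached no more than 0.192 CPM in any library and was tested in no line. KCNJ3, the usual partner of KCNJ5, fell in TC-32 from 10.3 ± 0.912 to 2.88 ± 0.448 CPM (-1.85, adjusted p = 1.90e-12), so the partner pores went opposite ways in that line.

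KCNJ14 was the inward rectifier that fell in all 3 lines. TC-32 held 5.49, 6.63 and 6.44 CPM in siNeg and 4.79, 5.14 and 4.03 in siFLI1. TC-71 held 13.4, 15.2 and 12.9 against 7.69, 7.99 and 6.95, and A673 held 7.57, 7.90 and 7.13 against 2.69, 3.42 and 3.18. The gap was narrow in TC-32 and wide in the other lines. On the log2 scale these were changes of -0.41 (SE 0.131, edgeR adjusted p = 0.00624), -0.87 (SE 0.0983, adjusted p = 4.44e-09) and -1.28 (SE 0.0882, adjusted p = 1.57e-09). Of its exon bases, 23.5% overlap genes on the opposite strand and 9.497% genes on the same strand.

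KCNJ11, the pore of ATP-sensitive channels, fell from 2.08 ± 0.274 to 0.105 ± 0.0470 CPM in TC-32 (log2 fold change -4.30, edgeR adjusted p = 1.40e-10) and from 2.86 ± 0.134 to 0.366 ± 0.0487 in TC-71 (-2.96, adjusted p = 1.13e-11). In A673 it stood at 0.119 ± 0.00976 and 0.0635 ± 0.0225 CPM and did not pass the threshold (-0.90, adjusted p = 0.0594), although it did with library size as the only scaling, with limma-voom and without siFLI1 library 3 (adjusted p = 0.0364, 0.0438 and 0.0466). KCNJ12 fell in TC-32 by 1.35 (adjusted p = 7.55e-13) and rose in A673 by 0.79 (adjusted p = 2.50e-05), and its effect in TC-32 minus that in A673 was -2.11 (interaction adjusted p = 1.43e-12). KCNJ12 has a near-identical copy in KCNJ18, so how reads were shared between them is uncertain. KCNJ2, the strong rectifier of heart and skeletal muscle, had 0 counts in the siNeg libraries of A673 and 33, 59 and 43 in siFLI1, at least 15.03-fold higher (adjusted p = 1.84e-07). It entered that test only through siFLI1, so the call is a description. KCNJ4 rose in TC-32 from 1.13 ± 0.0428 to 2.09 ± 0.464 CPM (0.87, adjusted p = 0.00176) and in A673 from 0.250 ± 0.0690 to 0.506 ± 0.0516 (1.02, adjusted p = 0.00151), and stood at 0.858 ± 0.111 and 0.883 ± 0.262 in TC-71 (0.04, adjusted p = 0.918). Of the 16 inward rectifiers, 2 rose and 4 fell of 6 tested in TC-32, 2 fell of 6 in TC-71 with the other 4 short of the threshold, and 3 rose and 1 fell of 5 in A673, with medians of -0.88, -0.13 and 0.79.

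**Figure D4:**
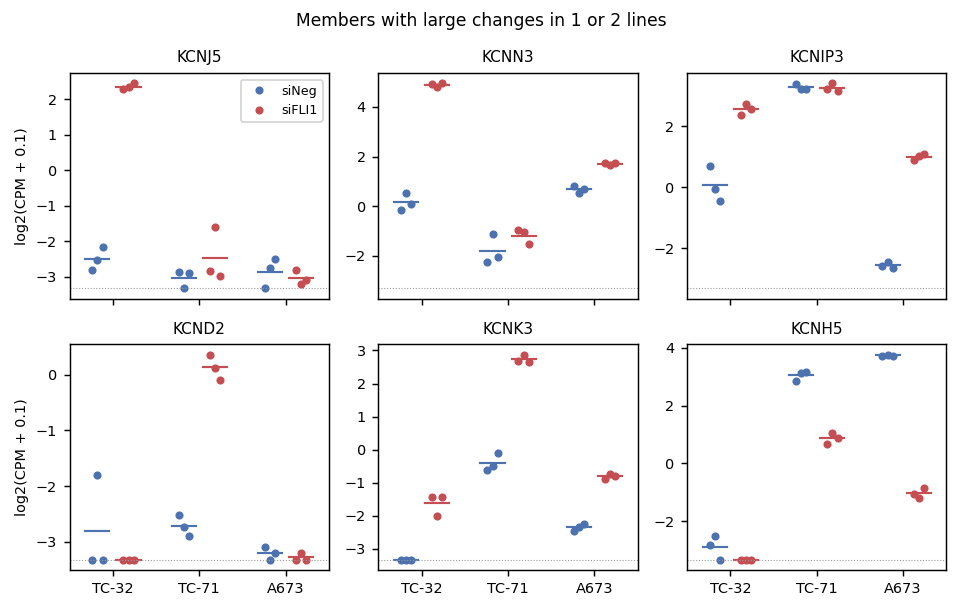
Level of 6 channel genes with large changes in 1 or 2 lines, as log2 of CPM plus 0.1 (vertical axis, scaled per panel), by line and siRNA; points are libraries, lines are means of the log2 values and the dotted line marks 0 CPM. KCNJ5 is high only in the siFLI1 libraries of TC-32, KCND2 only in those of TC-71, and KCNH5 is near the dotted line in TC-32.

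The two-pore domain channels carry background potassium current. KCNK6 (ENSG00000099337, chr19:38319845-38332076, plus strand), which encodes the weak rectifier TWIK2, had the largest difference of effects among the channel genes called in opposite directions. In TC-32 it rose from 4.15, 4.30 and 4.46 CPM to 21.3, 22.3 and 22.9. A673 also showed a rise, from 0.0333, 0.0328 and 0.0253 to 0.934, 0.816 and 0.787, and TC-71 showed a fall, from 7.95, 7.20 and 6.73 to 4.62, 5.35 and 4.96. The siFLI1 libraries were thus the high ones in TC-32 and A673 and the low ones in TC-71, with no overlap. Its log2 fold changes were thus 2.37 (SE 0.0929, edgeR adjusted p = 1.91e-17), 4.75 (SE 0.292, adjusted p = 3.20e-10) and -0.55 (SE 0.117, adjusted p = 0.000133). The effect in A673 differed from that in TC-71 by 5.22 (SE 0.275, interaction adjusted p = 9.35e-18), and that in TC-32 differed from that in TC-71 by 2.91 (SE 0.147, adjusted p = 4.13e-18). The siNeg libraries of A673 lay near the level of 3 counts (0.0258, 0.0255 and 0.0262 CPM). The size of the A673 rise and of the 5.22 thus rests on few counts. KCNK6 entered the A673 test only through siFLI1, so that call is a description.

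The promoter of KCNK6 held 12 copies of GGAA on either strand, the highest count among the promoters of the channel genes, and it is shown beside that of KCNN4, which held 0. A link between the number of copies and the direction of change was not tested. Each runs from 250 bases before to 50 after the gene start (RefSeq, GRCh38.p14, on the strand of the gene, 5′ to 3′), and capitals mark GGAA or its complement TTCC.
KCNK6 (chr19:38319595-38319894, plus strand): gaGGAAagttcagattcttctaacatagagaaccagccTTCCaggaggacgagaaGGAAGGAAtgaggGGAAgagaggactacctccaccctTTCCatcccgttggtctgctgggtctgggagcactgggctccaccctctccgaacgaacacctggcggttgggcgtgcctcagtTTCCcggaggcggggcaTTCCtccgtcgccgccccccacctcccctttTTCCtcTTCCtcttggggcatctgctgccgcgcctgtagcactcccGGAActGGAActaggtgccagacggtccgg
KCNN4 (chr19:43780924-43781223, minus strand): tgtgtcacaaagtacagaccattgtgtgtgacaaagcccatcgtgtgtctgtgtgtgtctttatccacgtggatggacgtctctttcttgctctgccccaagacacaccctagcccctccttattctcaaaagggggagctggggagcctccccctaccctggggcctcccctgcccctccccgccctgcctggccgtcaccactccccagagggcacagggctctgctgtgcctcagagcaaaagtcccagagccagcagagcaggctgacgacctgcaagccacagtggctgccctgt
The motif is common at any gene start: GGAA on either strand was found in 93.6% of 109 promoters of the 71 channel genes with an entry, and in 95.5% of 35116 promoters of all genes, with a median of 3 copies in each. A pair of GGAA in tandem was found in 5.50% and 3.67%. A match is a description of letters and not of binding.

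KCNK3, the acid-sensitive pore TASK1, rose in TC-71 from 0.557, 0.608 and 0.833 CPM to 6.34, 7.23 and 6.17 (log2 fold change 3.27, SE 0.187, edgeR adjusted p = 1.14e-15). Its rise in A673 was from 0.0832, 0.0984 and 0.110 to 0.437, 0.507 and 0.472 (2.27, SE 0.277, adjusted p = 1.69e-06). In TC-32 it was not tested, with 0 counts in each siNeg library and 7, 5 and 8 in siFLI1. All siFLI1 libraries were above the siNeg libraries of their line. KCNK12, a two-pore gene tested in TC-71 only, rose there from 0.0124 ± 0.0214 to 0.935 ± 0.162 CPM (5.70, adjusted p = 1.60e-08). It entered that test only through siFLI1, so the call is a description. KCNK7 fell in A673 from 0.181 ± 0.0713 to 0.0517 ± 0.0146 CPM (-1.78, adjusted p = 0.00191). KCNK5, the alkaline-activated pore TASK2, fell in TC-32 by 2.60 (adjusted p = 2.12e-05) and in TC-71 by 2.49 (adjusted p = 6.999e-08). KCNK18, the calcineurin-regulated pore TRESK of sensory neurons, rose in TC-32 from 0.251, 0.188 and 0.0421 CPM to 0.575, 0.832 and 1.22 (2.41, SE 0.471, adjusted p = 4.71e-05). In A673 it was called lower, from 13, 12 and 12 counts to 7, 1 and 5 (-1.43, SE 0.528, adjusted p = 0.0219). This A673 call did not hold without siNeg library 1 or 3 or siFLI1 library 2 (adjusted p = 0.0611, 0.0526 and 0.115) or with DESeq2 (adjusted p = 0.0833), and its adjusted p ran from 0.0110 to 0.115 over all alternatives. The effect in TC-32 exceeded that in A673 by 3.86 (SE 0.845, interaction adjusted p = 0.000134). KCNK18 entered the test of each line only through the group in which it was high. It entered the model of all 18 libraries only through the siFLI1 libraries of TC-32. Its calls and the 3.86 are thus descriptions and no support for a difference between lines. Of the 15 two-pore domain genes, 2 rose and 1 fell of 3 tested in TC-32, 2 rose and 2 fell of 6 in TC-71, and 2 rose and 2 fell of 5 in A673, with medians of 2.37, -0.52 and -0.31.

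Within the calcium-activated channels, the small-conductance pore KCNN1 fell and the intermediate-conductance pore KCNN4 rose in all 3 lines. KCNN1 (ENSG00000105642, chr19:17951293-18000085, plus strand) encodes SK1, which shapes the pause after a burst of action potentials. In A673 it went from 25.5, 24.5 and 24.2 CPM to 0.720, 0.910 and 0.674. In TC-32 it went from 17.2, 15.4 and 16.8 to 3.99, 4.13 and 3.79, and in TC-71 from 16.2, 16.0 and 18.3 to 6.997, 5.32 and 5.66. The siNeg libraries of all lines lay between 15.4 and 25.5 CPM, and the siFLI1 libraries were lowest in A673. These made log2 fold changes of -5.01 (SE 0.0851, edgeR adjusted p = 2.66e-17), -2.05 (SE 0.0997, adjusted p = 1.47e-15) and -1.50 (SE 0.103, adjusted p = 9.11e-14). The effect in A673 minus that in TC-71 was -3.53 (interaction adjusted p = 1.37e-20), and that in TC-32 minus that in A673 was 2.98 (adjusted p = 3.40e-18).

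KCNN4 (ENSG00000104783, chr19:43766533-43780976, minus strand) is known from red cells, lymphocytes and proliferating cells. In A673 it rose from 0.216, 0.123 and 0.0759 CPM to 2.91, 3.52 and 3.34 (log2 fold change 4.54, SE 0.206, edgeR adjusted p = 6.64e-12). In TC-32 it rose from 3, 1 and 0 counts to 21, 20 and 16 (3.46, SE 0.616, adjusted p = 1.12e-05). TC-71 went from 0 counts in each library to 32, 52 and 61, at least 13.4-fold higher against 3 counts per library (adjusted p = 6.58e-11). All 9 siFLI1 libraries stood above all 9 siNeg libraries in CPM, at levels that remained low. KCNN4 entered the test of each line only through these siFLI1 libraries, so its calls are descriptions.

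KCNN3, the small-conductance pore SK3, rose most in TC-32. There it went from 0.796, 1.36 and 0.968 CPM to 30.6, 28.1 and 30.8 (log2 fold change 4.82, SE 0.127, edgeR adjusted p = 6.05e-21). In A673 it went from 1.65, 1.34 and 1.53 to 3.21, 3.07 and 3.19 (1.07, SE 0.103, adjusted p = 1.10e-07), and in TC-71 it held 3, 7 and 4 counts against 10, 10 and 9 and was not tested. The effect in TC-32 exceeded that in A673 by 3.78 (interaction adjusted p = 2.05e-18) and that in TC-71 by 3.99 (adjusted p = 8.19e-07).

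The large-conductance (BK) channel showed the same split between lines in its pore and in 1 of its beta subunits. KCNMA1, the BK pore, rose in TC-32 from 0.151 ± 0.124 to 1.63 ± 0.411 CPM (log2 fold change 3.41, edgeR adjusted p = 6.61e-08) and in A673 from 0.252 ± 0.0302 to 0.636 ± 0.0480 (1.33, adjusted p = 2.56e-05). In TC-71 it was already at 13.9 ± 1.05 CPM in siNeg and stood at 13.96 ± 0.397 in siFLI1 (0.02, adjusted p = 0.871). KCNMB4, the neuronal beta subunit, rose in TC-32 from 1.58 ± 0.440 to 16.3 ± 0.352 CPM (3.37, adjusted p = 2.70e-17) and in A673 from 4.49 ± 0.359 to 15.8 ± 0.406 (1.82, adjusted p = 4.25e-13). In TC-71 it stood at 10.0 ± 0.671 and 8.94 ± 0.373 CPM (-0.16, adjusted p = 0.142). For KCNMA1 and KCNMB4 the effect in TC-71 was below that in TC-32 (by 3.40 and 3.53, interaction adjusted p = 1.25e-09 and 3.31e-19) and below that in A673 (by 1.28 and 1.94, adjusted p = 1.26e-05 and 1.77e-15). KCNMB1, the smooth muscle beta subunit, rose by 3.21 in TC-32 (adjusted p = 4.43e-08) and by 3.07 in A673 (adjusted p = 1.18e-07), and had 0 counts in all 6 libraries of TC-71. KCNMB2 rose in TC-32 from 0.0251 ± 0.0435 to 0.965 ± 0.117 CPM (4.95, adjusted p = 7.04e-08). It entered that test only through siFLI1, so the call is a description. KCNMB3 was called higher in TC-71 by 0.51 (adjusted p = 0.00146), but 38.0% of its exon bases overlap genes on the opposite strand. KCNT2, a sodium-activated pore tested in TC-71 only, was called higher there by 0.72 (adjusted p = 0.0180), a call that did not hold with DESeq2 (0.0599) or without siNeg library 1 or 3 or siFLI1 library 2 or 3 (0.0501, 0.0749, 0.0559 and 0.0521). Of the 12 calcium- or sodium-activated genes, 6 rose and 1 fell of 8 tested in TC-32, 3 rose and 1 fell of 6 in TC-71, and 5 rose and 1 fell of 7 in A673, with medians of 3.39, 0.26 and 1.33. Of all genes tested, 41.3% rose and 40.1% fell in TC-32, 36.8% and 35% in TC-71, and 35.6% and 35.4% in A673.

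Across the lines, 3 of the 27 channel genes tested in all of them were higher throughout (KCNAB2, KCNH1 and KCNN4) and 6 were lower throughout (KCNA2, KCNAB3, KCNE3, KCNG1, KCNJ14 and KCNN1). Over the 14233 genes tested in all 3 lines, 18.9% were higher and 19% lower throughout. KCNH1 and KCNN4 entered the tests only through their siFLI1 libraries, in which they were high. Their place among the genes higher throughout is thus a description. The lines share no control libraries. Tested for a difference itself in one model of all 18 libraries, 28 of 58 channel genes had an effect that differed between TC-32 and A673, against 62.1% of 19610 genes. The pair TC-32 and TC-71 gave 23 of 58, against 53.6%, and the pair A673 and TC-71 gave 26 of 58, against 51.6%. These shares lie below those of all genes. Some of the 58 genes were too low to be tested in a line of the pair, where a difference could hardly be called. The shares thus do not show that channel genes differ less between lines than other genes. A call in opposite directions, with a difference past the threshold, was found for 5 channel genes in TC-32 and A673 (among them KCNF1, KCNH3, KCNJ12 and KCNK18), for 4 in TC-32 and TC-71 (among them KCNE4, KCNH3 and KCNK6) and for 3 in A673 and TC-71 (among them KCNE4 and KCNK6). The TC-71 table differs from the other tables in its counting tool as well as in its cells, so a difference that involves TC-71 cannot be told apart from one of counting, although each effect was taken within its own table. FLI1 itself also fell by different amounts in the lines. A673 further differs in sequencing depth, and no time is given for it. A difference of a channel gene between lines, that of TC-32 and A673 included, cannot be told apart from these.

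**Figure D5:**
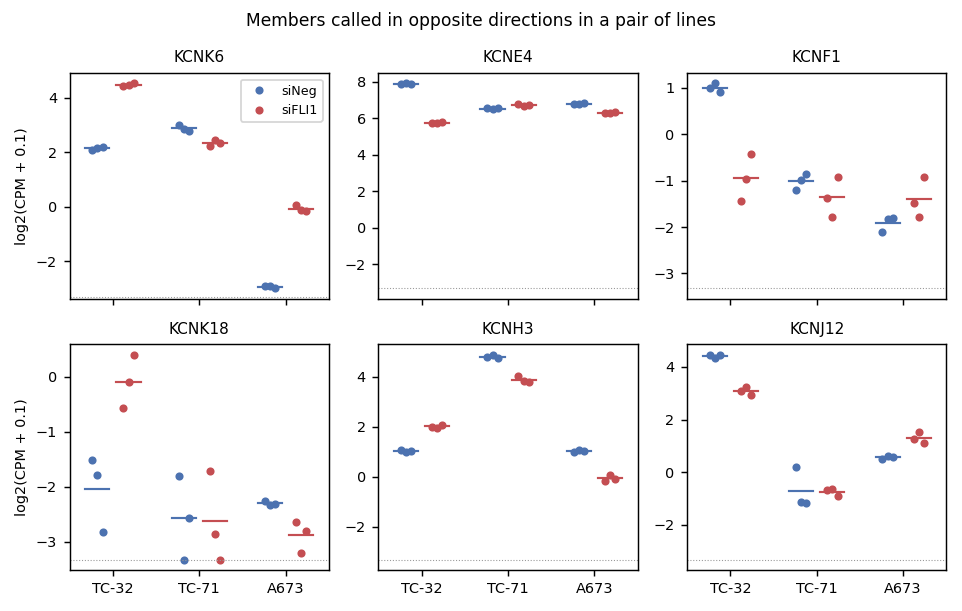
Level of 6 channel genes called in opposite directions in a pair of lines, as log2 of CPM plus 0.1 (vertical axis, scaled per panel), by line and siRNA; points are libraries, lines are means of the log2 values and the dotted line marks 0 CPM. KCNK6 goes up in TC-32 and A673 and down in TC-71, KCNH3 goes up in TC-32 and down in the other lines, and the points of KCNF1 in A673 nearly touch.

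Because the fusion is known to bind GGAA repeats, runs of at least 4 tandem GGAA on either strand were searched for in hg38, and 16606 were found. They are matches of letters, and binding at them was not measured. Of the 95 channel genes, 12 (12.6%) had a run within 10 kb of the gene start, against 7.84% of 57717 genes of the tables, and the median distance was 77.6 kb against 86.4 kb. The channel genes are all protein-coding, while the 57717 genes are of all types. Among these 12, KCNE3, KCNN1 and KCNAB3 fell in all 3 lines, KCNS3 fell in TC-32 and A673, KCNMB1 rose in both of those lines and KCNK6 went in different directions, so genes near a run moved both ways. The other 6 were KCNH4, KCNK1, KCNK10, KCNK15, KCNK17 and KCNU1, tested in no line. The runs of the members described above are shown with 25 bases on each side, in capitals, on the plus strand of hg38, 5′ to 3′.
KCNS3 (chr2:17872133-17872222, 10 copies, 5650 bases upstream): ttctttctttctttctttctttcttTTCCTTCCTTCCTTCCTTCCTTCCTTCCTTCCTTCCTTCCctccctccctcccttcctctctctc
KCNN1 (chr19:17957096-17957161, 4 copies, 5828 bases downstream of the start): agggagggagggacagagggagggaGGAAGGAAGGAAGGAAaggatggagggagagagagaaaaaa
KCNMB1 (chr5:170382918-170382991, 6 copies, 6668 bases downstream of the start): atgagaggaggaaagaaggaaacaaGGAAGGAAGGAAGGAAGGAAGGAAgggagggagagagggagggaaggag
KCNK6 (chr19:38328884-38328949, 4 copies, 9064 bases downstream of the start): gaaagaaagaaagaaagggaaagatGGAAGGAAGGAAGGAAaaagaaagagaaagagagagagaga
KCNAB3 (chr17:7920392-7920461, 5 copies, 9420 bases downstream of the start): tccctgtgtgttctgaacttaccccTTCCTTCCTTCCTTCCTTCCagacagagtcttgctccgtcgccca
Of these 5 marked runs, that of KCNS3 is the longest, and those of KCNN1 and KCNK6 have the smallest number of copies that was searched for. The run nearest to KCNE3 also has 4 copies, but further copies follow it after a short break, so that repeat as a whole is longer.

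Genes that work with these channels but carry other names were read from 3 further lists. Beside their counts stand the shares of all genes tested. These were 41.3% higher and 40.1% lower in TC-32, 36.8% and 35% in TC-71, and 35.6% and 35.4% in A673. Of 10 partner subunits, 2 rose and 1 fell of 4 tested in TC-32, both of the 2 tested fell in TC-71, and 1 rose and 2 fell of 4 in A673. LRRC55, an auxiliary subunit of BK channels, went from 0 counts in the siNeg libraries of TC-32 to 40, 45 and 32 in siFLI1, and in A673 from 70, 77 and 66 counts to 6, 3 and 4 (log2 fold change -3.94, edgeR adjusted p = 1.26e-08). AMIGO1, a partner of Kv2 pores, rose in TC-32 by 1.17 and in A673 by 0.74 and fell in TC-71 by 0.29. ABCC8, the sulfonylurea receptor that pairs with KCNJ11, had at most 2 counts in any library. Of 14 genes of the sodium-potassium pump and cation-chloride cotransport, 7 rose and 5 fell of 12 tested in TC-32, 4 rose and 4 fell of 10 in TC-71, and 6 rose and 5 fell of 12 in A673. ATP1B1, a beta subunit of the pump that builds the potassium gradient, fell in TC-32, from 434 to 113 CPM, and rose in TC-71 from 8.69 to 38.1 and in A673 from 44.6 to 87.0. The cotransporter SLC12A4 rose in all 3 lines, by 1.89, 0.93 and 0.72 on the log2 scale. Of 10 HCN and CNG genes, cation channels related to the Kv family, 1 rose of 2 tested in TC-32, 1 rose of 3 in TC-71, and 1 rose and 2 fell of 4 in A673. HCN2, a pacemaker channel, rose in TC-32 by 2.06 and in TC-71 by 1.03 and fell in A673 by 0.17.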

How the data were processed

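RNA sequencing of 3 Ewing sarcoma cell lines gave 18 libraries, 3 for each siRNA in each line. For TC-71 the authors deposited whole counts per gene, made with Subread per the file names. The tables of both other lines hold expected counts as deposited by the authors, made with RSEM per the file names, which were rounded to whole numbers here. The line of the TC-32 and TC-71 columns was read from the names of the tables. The names cutadapt 4.4, STAR 2.7.3, Subread 2.0.3 and GRCh38 are listed per the submitters' processing notes, with no role, order or table given.

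Each line was fitted alone, siFLI1 against siNeg, with edgeR 4.0.16 in R 4.3.3 (TMM scaling, filterByExpr by group, robust quasi-likelihood F-test, Benjamini-Hochberg adjustment over all genes tested, threshold 0.05). Differences between lines were contrasts in one model of 6 groups. Each table was scaled separately, so levels set across tables are approximate. Levels per length used the exon union of GENCODE 44, in which 57754 of 58336 genes were found. The genes named in full were those called the same way in all 3 lines, in each line the 4 with the largest called change at a mean of 1 CPM or more and no overlap, KCNE3 and KCNAB3, for each pair of lines the 3 with the largest called changes in opposite directions, and the 3 most abundant per length in siNeg. A gene described beyond these was chosen after its values were seen. A few genes that these rules and lists hold are counted in the totals and not reported here by name. The members and lists were chosen with earlier results of these data known. The fit was tested on simulated data.

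Alternatives were DESeq2 1.42.0, limma-voom (limma 3.58.1), size factors, library size alone, no filter, a replicate block and each library left out in turn. A threshold of a 2-fold change was also tried. The alternatives for the summed level, among them leaving out KCNE3 and KCNE4, were chosen after seeing the data. Same-numbered libraries did not deviate together, so the numbers were taken as names only. Promoter and repeat sequences came from RefSeq (GRCh38.p14) and the hg38 reference.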

Additional observations from a re-analysis of the deposited data

Results flagged for a closer look

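By the interaction test of edgeR, the siFLI1 effect was unlike in a pair of lines for 28 channel genes in TC-32 and A673, for 23 in TC-32 and TC-71 and for 26 in A673 and TC-71, each of 58. Over all genes the shares were 62.1%, 53.6% and 51.6%, so those of the channel genes (48.3%, 39.7% and 44.8%) lay below them. Some of the 58 were too low to be tested in a line of the pair, where a difference could hardly be called. A lower share is thus no sign that channel genes differ less between lines. Among the named genes, those called in opposite directions in a pair of lines stood out. KCNK6 had an effect higher in A673 than in TC-71 by 5.22 and above its TC-71 effect in TC-32 by 2.91 on the log2 scale. The A673 effect rests on siNeg libraries near 3 counts each, so the size of the 5.22 is uncertain. For KCNE4 the effect in A673 minus that in TC-71 was -0.73, and that in TC-32 minus that in TC-71 was -2.32. KCNK18 had an effect higher in TC-32 than in A673 by 3.86, a description only, since it entered the model through the siFLI1 libraries of TC-32. For KCNF1 the effect in TC-32 minus that in A673 was -2.86. These are differences of effects between lines, and what lies behind them was not tested.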

How the results depend on the processing

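In all, 2217 values were recomputed. Of 737 values of the named genes, 719 kept their direction and side of the threshold, 17 lost the call, 1 gained it and 0 reversed, and all 188 recomputed differences between lines of named genes kept both. The cause of the changes was not tested. With each library left out in turn, the channel genes higher and lower ran from 20 to 22 and 16 to 16 in TC-32, from 9 to 12 and 16 to 17 in TC-71, from 19 to 21 and 15 to 17 in A673, and from 2 to 3 and 6 to 7 in all 3 lines. Differences between lines ran from 25 to 29 (TC-32 and A673), 20 to 24 (TC-32 and TC-71) and 22 to 29 (A673 and TC-71). A 2-fold threshold left 5 higher and 9 lower in TC-71. Library size alone moved the A673 median of all genes from -0.0066 to -0.11 and gave 19 higher and 20 lower. The fit with a replicate block gave 20 higher and 16 lower in TC-32, 11 and 16 in TC-71 and 21 and 16 in A673.

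Signs turned only for channel genes that had not passed the threshold. With 1 library left out, the log2 fold change in A673 ran from -0.16 to 0.36 for KCNAB1, from -0.12 to 0.047 for KCND1 and from -0.30 to 0.0046 for KCNIP2. In TC-71 it ran from -0.075 to 0.036 for KCNC4, from -0.095 to 0.044 for KCNIP3, from -0.59 to 0.48 for KCNJ12, from -0.28 to 0.91 for KCNJ15, from -0.21 to 0.19 for KCNJ4, from -0.039 to 0.31 for KCNJ6, from -0.038 to 0.058 for KCNMA1 and from -1.12 to 0.041 for KCNS3. Library size alone gave -0.090 for KCNAB1 in A673, and limma-voom gave -0.0019 for KCNJ4 in TC-71. Of the genes just short of the threshold in A673, KCNH2 passed with library size alone (adjusted p = 0.0204) and KCNC4 with no filter (adjusted p = 0.0455), in edgeR. These were not the only settings to pass. Over all alternatives the adjusted p in A673 ran from 0.0140 to 0.264 for KCNH2 and from 0.0166 to 0.321 for KCNC4. Depth differed between lines, and 48 channel genes could be tested in A673 against 38 in TC-32 and 43 in TC-71.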

Other observations

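KCNIP1 and KCNMB1 are neighbours that overlap on chromosome 5, on opposite strands, and both rose in TC-32 (log2 fold changes of 3.46 and 3.21) and in A673 (3.24 and 3.07) while both were at or near 0 counts in TC-71. Of the exon bases of KCNMB1, 1.84% overlap genes on the other strand, and of those of KCNIP1, 0.743%.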
